A study of Homo sapiens with 2 samples.

Results

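Genes of the early secretory pathway were described in the A2780 human ovarian cancer cell line, a culture model grown from a tumour. They were chosen by symbol, as protein-coding genes named SEC with a number, COPA, COPB, COPE, COPG or COPZ, SRP with a number, SRPR, SSR, TMED with a number, or SAR1. This took 61 of the 58735 genes in the table. By role, 18 serve translocation into the endoplasmic reticulum (ER), 8 are COPI coat subunits and 11 are COPII coat components. A further 10 are TMED genes, grouped by symbol. The other 14 are 3 COPII-associated genes, 2 signal peptidase catalytic subunits, 3 SEC22 SNARE genes and 6 SEC14-like genes. The SEC14-like genes share the prefix with a yeast lipid-transfer protein and belong to neither coat.

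The study had 2 poly(A)-selected RNA libraries. The shJAM3 library came from A2780 cells with a stable knockdown of JAM3, an adhesion molecule gene, and the shControl library from A2780 cells given an empty vector and labelled WT. Both cultures were taken in logarithmic growth, and nothing in the sources used here says whether the knockdown line is 1 clone. Values are FPKM, a fragment count divided by gene length and by library size. shJAM3 below means the library so labelled. With 1 library a group there is no test of the conditions, and every difference below is one between 2 libraries. Ratios are FPKM in shJAM3 over FPKM in shControl. The bracketed 95% interval covers counting error alone. Culture-to-culture spread and PCR copies lie outside it.

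The libraries held 16455079 recovered fragments for shJAM3 and 15570262 for shControl, of which the 61 genes took 0.800% and 0.751%. JAM3 itself had 14 fragments in shJAM3 and 18 in shControl, or 0.154 and 0.215 FPKM, a ratio of 0.716 (0.330 to 1.52). The design text states a reduction by more than 70%, a size that lies beyond the lower bound of that interval. Of 9 epithelial and ovarian carcinoma markers, only KRT7, KRT8 and KRT18 averaged at least 1 FPKM. EPCAM, CDH1 and KRT19 were under 1 FPKM in both libraries, and WT1 had no fragment in shJAM3. None of 7 blood and endothelial markers averaged 1 FPKM, with PTPRC and HBB at 0 in both. Of 4 hepatocyte and muscle markers DES passed, at 4.26 FPKM in shJAM3 and 7.11 FPKM in shControl, and of 5 fibroblast markers COL1A1 passed, at 11.3 FPKM in shJAM3 and 13.5 FPKM in shControl. The part of such cells in the values below was not tested. As in any bulk sample, a difference in cell make-up and one in RNA per cell cannot be told apart. A gene counted as measured with a mean of at least 1 FPKM, which 54 of the 61 passed.

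As background, proteins bound for secretion or for membranes carry a signal sequence that the signal recognition particle (SRP) binds as it leaves the ribosome. The particle docks on its receptor, and the chain is threaded through the Sec61 channel, helped by Sec62, Sec63 and the translocon-associated protein (TRAP) complex. Cargo then leaves the ER in vesicles coated by COPII and returns from the Golgi in vesicles coated by COPI, while TMED proteins help to load both.

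ER translocation genes were mostly higher in shJAM3, and coat genes went both ways. Of 18 translocation genes, all measured, 14 were higher and 4 lower, with a median log2 ratio of 0.20 on the log2(FPKM + 1) scale. Among all 10499 measured protein-coding genes, 49.4% were higher and the median was -0.01. COPI had 5 genes higher and 3 lower with a median of 0.04, and COPII had 5 higher and 5 lower with a median of 0.04. Translocation thus lay 0.16 above either coat on the log2 scale, and COPI and COPII differed by less than 0.01 in median. The order held for translocation after each gene was centred on genes of like GC content, with medians of 0.08 for translocation, -0.04 for COPI and -0.13 for COPII. The medians of COPI and COPII changed sign under that centring. Summed levels were 595 FPKM in shJAM3 and 521 FPKM in shControl for translocation, 431 FPKM in shJAM3 and 401 FPKM in shControl for COPI, and 160 FPKM in shJAM3 and 152 FPKM in shControl for COPII.

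Counting error was exceeded by most of these genes, as by most measured protein-coding genes. The interval lay above 1 for 13 of 18 translocation genes, 3 of 8 COPI genes and 5 of 10 measured COPII genes, against 34.5% of all measured protein-coding genes. It lay below 1 for 2, 2 and 3 of them, against 36.8%. In size the differences were moderate. A log2 ratio of at least 0.5 was reached by 6 of the 54 measured genes, or 11.1%, beside a background of 8.35%. Those were SRP72, SEC62, SSR3, COPG2, COPZ1 and SEC22A. A log2 ratio of -0.5 or less was seen in 4, or 7.41%, beside a background of 12.4%, and these were SEC16A, TMED1, TMED9 and SEC14L1. No member was past 2-fold on the log2(FPKM + 1) scale, which 0.391% of measured protein-coding genes passed upward and 1.41% downward.

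**Figure D1:**
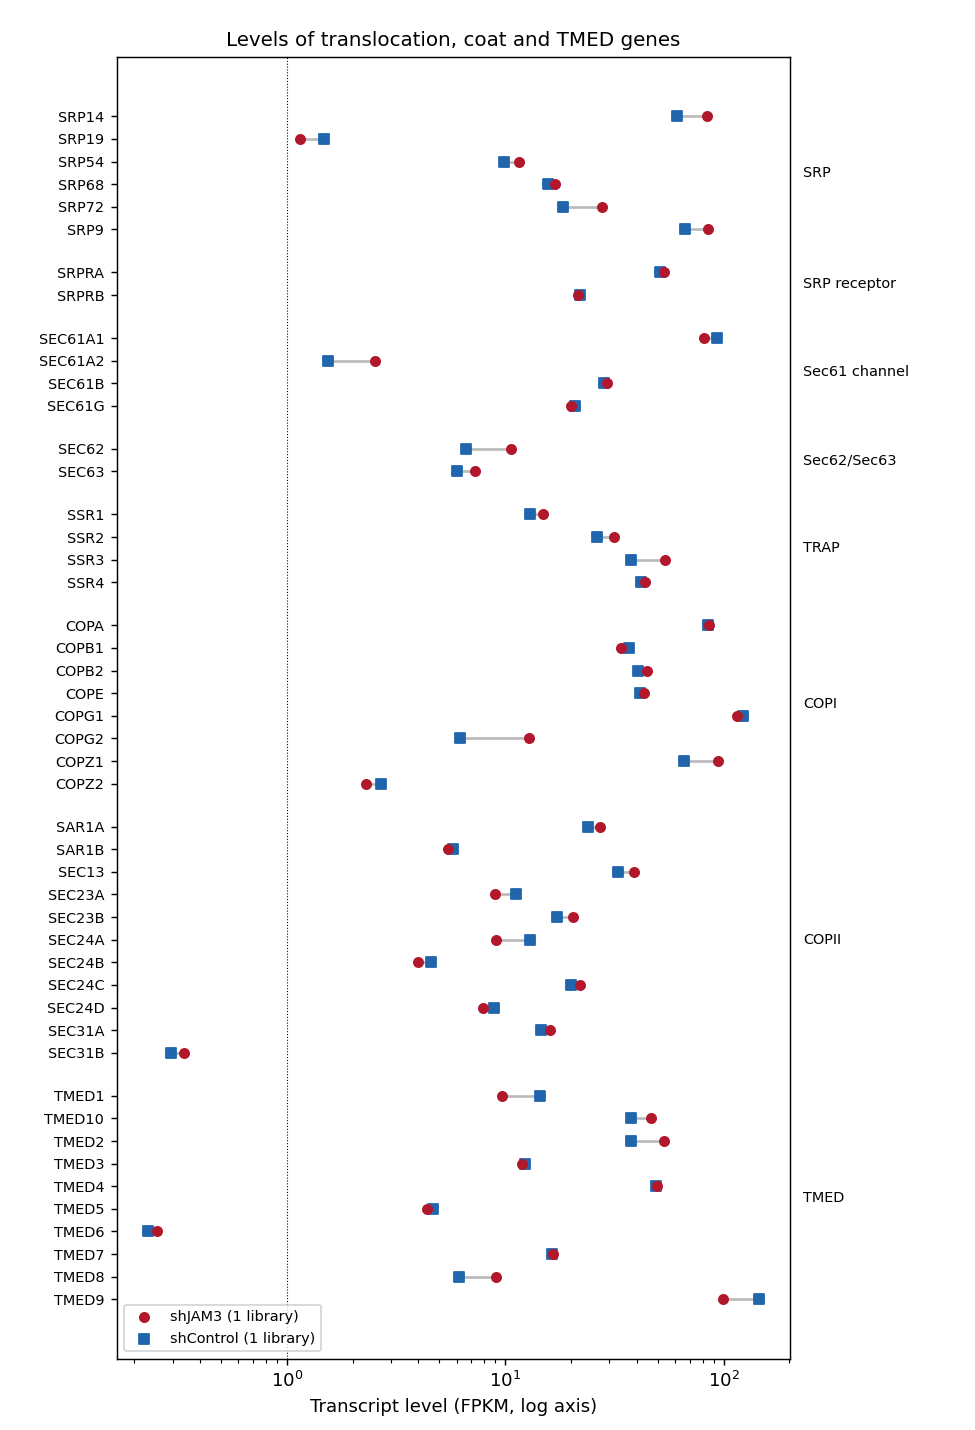
Transcript level of each translocation, COPI, COPII and TMED gene in the shJAM3 library (red circles) and the shControl library (blue squares), in FPKM on a log axis, grouped by role; the dotted line marks 1 FPKM. Most pairs lie close together, COPG2 is at 12.8 FPKM in shJAM3 and 6.23 in shControl, and only SEC31B and TMED6 lie under 1 FPKM in both.

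SRP genes were mostly higher. Of the 6 protein genes, 5 were higher in shJAM3, each beyond counting error, and the summed level of all 6 was 225 FPKM in shJAM3 against 173 FPKM in shControl. SRP72, which with SRP68 binds the particle's RNA, was at 27.8 FPKM in shJAM3 and 18.3 FPKM in shControl, a ratio of 1.52 (1.43 to 1.61). Its partner SRP68 was at 16.8 FPKM in shJAM3 and 15.8 FPKM in shControl, a ratio of 1.07 (1.003 to 1.14). The intervals of these partners in 1 dimer do not overlap. SRP9 and SRP14 form the dimer that slows elongation, and both were higher. SRP14 was at 83.6 FPKM in shJAM3 and 61.0 FPKM in shControl, a ratio of 1.37 (1.29 to 1.45). SRP9 was at 84.5 FPKM in shJAM3 and 66.8 FPKM in shControl, a ratio of 1.27 (1.19 to 1.35).

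SRP54, the GTPase that holds the signal sequence, was at 11.5 FPKM in shJAM3 and 9.82 FPKM in shControl, a ratio of 1.17 (1.05 to 1.31). SRP19, which helps SRP54 join the RNA, was the exception at 1.15 FPKM in shJAM3 and 1.49 FPKM in shControl, a ratio of 0.771 (0.636 to 0.934). It also has the lowest FPKM of the SRP genes. Its deposited gene length of 10517 bases is the union of all annotated exons, which lowers an FPKM where most transcripts are shorter. Other annotated genes share 18.2% of its exon bases. SRP9 and SRP14 have processed pseudogenes. The pseudogenes summed to 2.07 FPKM in shJAM3 and 0 in shControl for SRP9, and to 0.684 FPKM in shJAM3 and 0.386 FPKM in shControl for SRP14. GC centring lowered the SRP median log2 ratio to 0.08, against 0.27 without it, with SRP72 at 0.37, SRP14 at 0.30, SRP9 at 0.08 and SRP54 at 0.035.

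The SRP receptor was nearly level between the libraries. SRPRA, its GTPase alpha subunit, was at 53.5 FPKM in shJAM3 and 51.0 FPKM in shControl, a ratio of 1.05 (1.001 to 1.10). SRPRB, the membrane-anchored beta subunit, was at 21.6 FPKM in shJAM3 and 22.0 FPKM in shControl, a ratio of 0.980 (0.911 to 1.06), an interval that includes 1. Other annotated genes share 21.1% of the SRPRB exon bases.

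The Sec61 channel did not share the higher side of the SRP. SEC61A1, the main pore subunit, had the highest mean level of the translocation genes, at 81.2 FPKM in shJAM3 and 93.1 FPKM in shControl, a ratio of 0.872 (0.843 to 0.903). SEC61B and SEC61G encode the small subunits of the same trimer. SEC61B was at 29.1 FPKM in shJAM3 and 28.3 FPKM in shControl, a ratio of 1.03 (0.913 to 1.16), and SEC61G at 19.9 FPKM in shJAM3 and 20.9 FPKM in shControl, a ratio of 0.954 (0.850 to 1.07), so neither differed beyond counting error. The alternative pore gene SEC61A2 was at 2.54 FPKM in shJAM3 and 1.55 FPKM in shControl, a ratio of 1.64 (1.27 to 2.14). SEC61A2 made up 3.04% of the summed SEC61A level in shJAM3 and 1.63% in shControl, so the pore was still almost wholly SEC61A1 transcript. NUDT5 on the opposite strand shares 9.88% of the SEC61A2 exon bases and was at 14.9 FPKM in shJAM3 and 11.3 FPKM in shControl. The part of NUDT5 in the SEC61A2 value was not tested.

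The channel's partners were higher. SEC62, which serves short and post-translational substrates, was at 10.6 FPKM in shJAM3 and 6.62 FPKM in shControl, a ratio of 1.61 (1.47 to 1.75). SEC62 (ENSG00000008952) occupies 169966635 to 169998373 of chromosome 3 in GRCh38, plus strand. SEC63, which recruits the chaperone BiP, was at 7.25 FPKM in shJAM3 and 6.02 FPKM in shControl, a ratio of 1.21 (1.10 to 1.32). After GC centring SEC62 was at a log2 ratio of 0.36 and SEC63 at 0.03, close to level. The TRAP complex was higher in all 4 subunits, each beyond counting error. SSR3 (TRAP gamma) was at 54.1 FPKM in shJAM3 and 37.7 FPKM in shControl, a ratio of 1.43 (1.37 to 1.51). SSR2 (TRAP beta) was at 31.3 FPKM in shJAM3 and 26.4 FPKM in shControl, a ratio of 1.19 (1.13 to 1.25).

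The other TRAP subunits differed less. SSR1 (TRAP alpha) was at 14.9 FPKM in shJAM3 and 13.0 FPKM in shControl, a ratio of 1.15 (1.09 to 1.22). SSR4 (TRAP delta) was at 43.9 FPKM in shJAM3 and 41.6 FPKM in shControl, a ratio of 1.05 (1.002 to 1.11). A gene on the other strand, IDH3G, shares 6.06% of the SSR4 exon bases. With GC centring SSR4, the most GC-rich of the 4 transcripts, moved to the top and the others kept their order. SSR4 was then at a log2 ratio of 0.44, SSR3 at 0.30, SSR2 at 0.26 and SSR1 at 0.02.

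**Figure D2:**
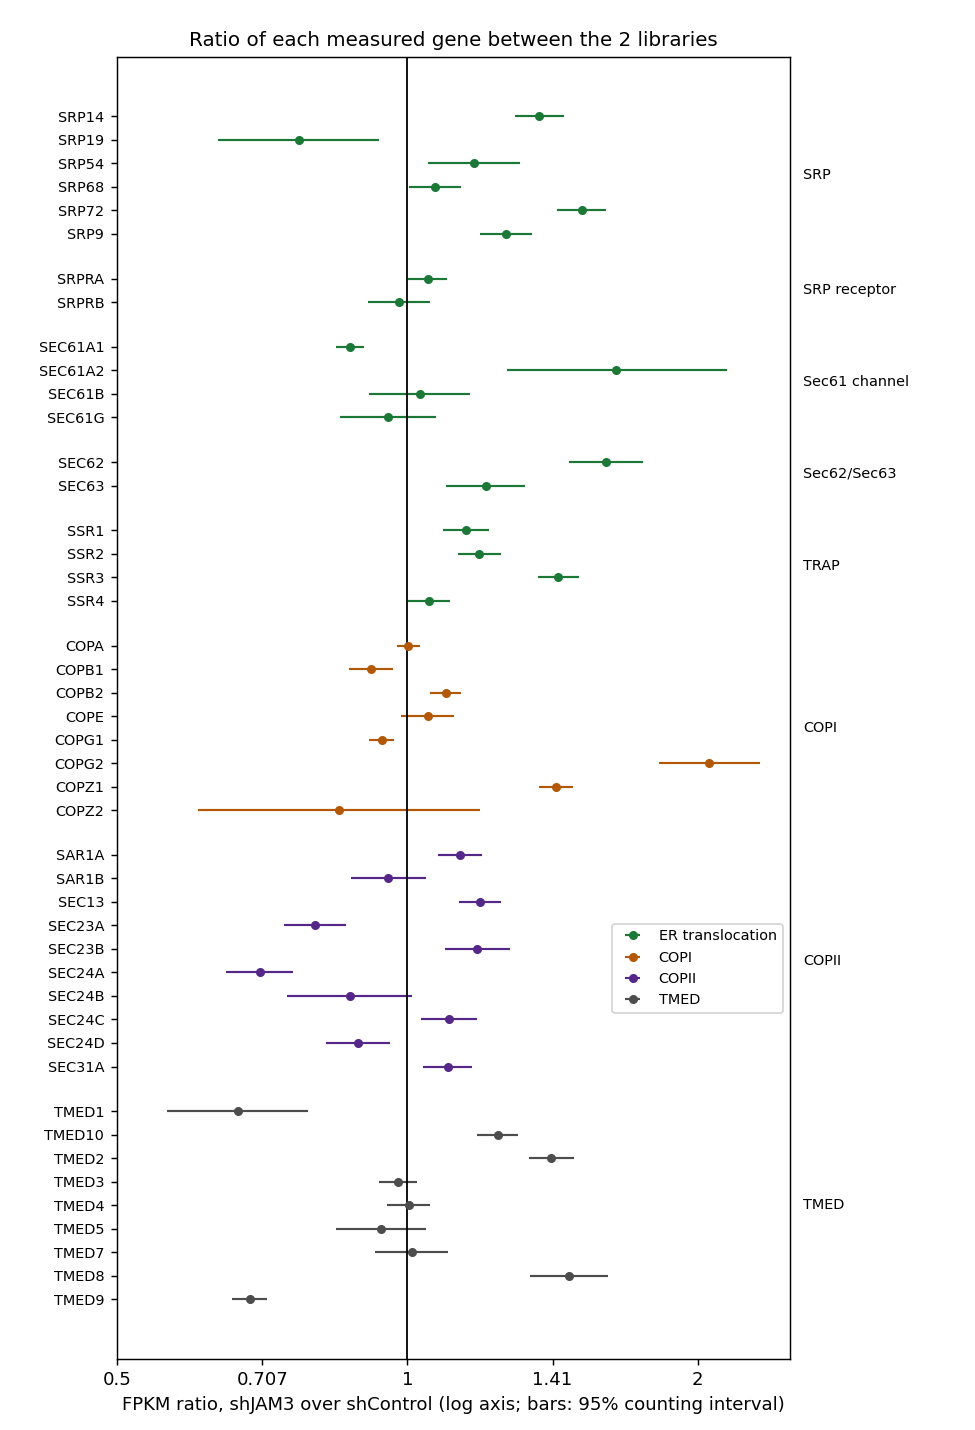
FPKM ratio of shJAM3 over shControl for each measured translocation, COPI, COPII and TMED gene, on a log axis; bars are 95% counting intervals and the black line marks a ratio of 1. SRP genes other than SRP19 and all TRAP genes lie right of the line, while COPII genes fall on both sides, from 0.703 for SEC24A to 1.19 for SEC13.

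Before GC centring, the coatomer, the COPI coat, was close to level apart from 2 subunits. COPA, the alpha subunit, was at 85.2 FPKM in shJAM3 and 85.1 FPKM in shControl, a ratio of 1.00 (0.975 to 1.03). COPB1 (beta) was at 33.8 FPKM in shJAM3 and 36.8 FPKM in shControl, a ratio of 0.917 (0.871 to 0.966). COPB2 (beta prime) was at 44.5 FPKM in shJAM3 and 40.6 FPKM in shControl, a ratio of 1.10 (1.06 to 1.14). The beta subunits thus lay on opposite sides of 1, each by a small margin. After GC centring both were below 0, with COPB1 at a log2 ratio of -0.29 and COPB2 at -0.015. COPE (epsilon) was at 43.2 FPKM in shJAM3 and 41.2 FPKM in shControl, a ratio of 1.05 (0.985 to 1.12), within counting error.

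The gamma and zeta subunits, each encoded by a pair of paralogs, varied most before GC centring. COPG2 was at 12.8 FPKM in shJAM3 and 6.23 FPKM in shControl, a ratio of 2.06 (1.82 to 2.32), the highest of the 54 measured genes. Its major paralog COPG1 was at 115 FPKM in shJAM3 and 122 FPKM in shControl, a ratio of 0.941 (0.912 to 0.970). COPG2 therefore supplied 10.0% of the summed gamma level in shJAM3 and 4.84% in shControl, while the sum itself was 128 FPKM in shJAM3 and 129 FPKM in shControl. COPG2 (ENSG00000158623) occupies 130506238 to 130668748 of chromosome 7 in GRCh38, minus strand. Other genes share 11.3% of its exon bases, among them MEST on the opposite strand, which was itself at 8.65 FPKM in shJAM3 and 5.23 FPKM in shControl. The libraries carry no stated strand mark, so fragments from the shared bases cannot be assigned to either gene, and the part of MEST in the COPG2 value was not tested.

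COPZ1, the main zeta subunit, was at 93.8 FPKM in shJAM3 and 65.8 FPKM in shControl, a ratio of 1.43 (1.37 to 1.48). It shares no exon base with another annotated gene. Its minor paralog COPZ2 was at 2.30 FPKM in shJAM3 and 2.71 FPKM in shControl, a ratio of 0.849 (0.606 to 1.19), from 71 fragments in shJAM3 and 77 in shControl, so no difference was detectable at this depth. After GC centring COPG2 stood at a log2 ratio of 0.79, COPE at 0.43 and COPZ1 at 0.42, so COPZ1 no longer stood apart from COPE. COPA, COPG1 and COPZ2 were each at -0.07. The delta subunit, ARCN1, is outside the naming rule and was at 55.2 FPKM in shJAM3 and 60.2 FPKM in shControl.

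COPII components split by paralog. The coat is started by the GTPase SAR1, which recruits the inner layer of SEC23 and SEC24, and SEC13 with SEC31 forms the outer cage. SEC24A, a cargo-binding subunit, had the lowest ratio of the coat at 9.11 FPKM in shJAM3 and 13.0 FPKM in shControl, a ratio of 0.703 (0.649 to 0.761). SEC24A (ENSG00000113615) occupies 134648789 to 134727823 of chromosome 5 in GRCh38, plus strand and shares 385 exon bases with SAR1B on the opposite strand. SEC24B, its closest relative, was at 4.00 FPKM in shJAM3 and 4.59 FPKM in shControl, a ratio of 0.871 (0.750 to 1.01). SEC24D was at 7.92 FPKM in shJAM3 and 8.91 FPKM in shControl, a ratio of 0.889 (0.824 to 0.960).

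SEC24C was the only SEC24 gene on the higher side, at 22.0 FPKM in shJAM3 and 20.0 FPKM in shControl, a ratio of 1.10 (1.03 to 1.18). A provisionally annotated gene on the other strand, AC022400.8, covers 42.9% of its exon bases but was at 0.0167 FPKM in shJAM3 and 0.0181 FPKM in shControl. SEC24C held 51.2% of the summed SEC24 level in shJAM3 and 43.0% in shControl, and SEC24A held 21.1% in shJAM3 and 27.9% in shControl. The sum over the 4 genes was 43.1 FPKM in shJAM3 and 46.4 FPKM in shControl.

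SEC23 showed the same kind of split. SEC23A, mutated in cranio-lenticulo-sutural dysplasia, was at 8.95 FPKM in shJAM3 and 11.2 FPKM in shControl, a ratio of 0.802 (0.745 to 0.864). SEC23B, mutated in a congenital dyserythropoietic anaemia, was at 20.5 FPKM in shJAM3 and 17.3 FPKM in shControl, a ratio of 1.18 (1.09 to 1.28). The intervals lie on opposite sides of 1. SEC23B held 69.6% of the summed SEC23 level in shJAM3 and 60.8% in shControl, and the sum was at 29.4 FPKM in shJAM3 and 28.5 FPKM in shControl. As shares of fragments, without the gene length, SEC23B held 52.9% in shJAM3 and 43.2% in shControl, so which paralog leads in shControl depends on the annotated lengths.

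SAR1A and the cage genes were slightly higher. SAR1A was at 27.2 FPKM in shJAM3 and 24.0 FPKM in shControl, a ratio of 1.13 (1.08 to 1.19), and SAR1B at 5.49 FPKM in shJAM3 and 5.74 FPKM in shControl, a ratio of 0.955 (0.874 to 1.04). SEC13, which also sits in the nuclear pore, was at 39.0 FPKM in shJAM3 and 32.8 FPKM in shControl, a ratio of 1.19 (1.13 to 1.25). SEC31A was at 16.0 FPKM in shJAM3 and 14.6 FPKM in shControl, a ratio of 1.10 (1.04 to 1.17). SEC31B was not measured by the rule above, at 0.340 FPKM in shJAM3 and 0.295 FPKM in shControl. Under GC centring SEC13 was at a log2 ratio of 0.34 and SEC31A at 0.00, while SEC23A and SEC24A moved down to -0.54 and -0.67.

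**Figure D3:**
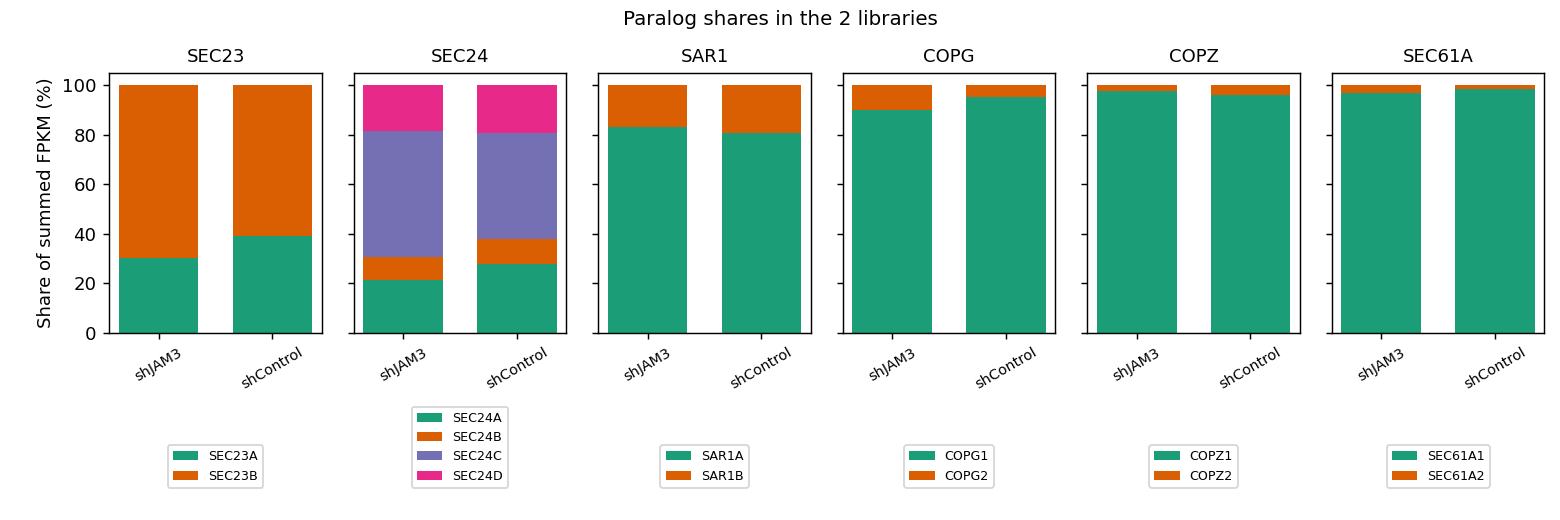
Share of each paralog in the summed FPKM of its group, in percent, with the shJAM3 library on the left of each panel and the shControl library on the right. SEC23B takes 69.6% in shJAM3 and 60.8% in shControl, SEC24C takes 51.2% in shJAM3 and 43.0% in shControl, and COPG2 takes 10.0% in shJAM3 and 4.84% in shControl, while 1 gene holds over 95% of SEC61A and COPZ in both.

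SEC16A, the scaffold of ER exit sites on which COPII assembles, had a lower ratio than any coat gene, an order that did not hold after GC centring. It was at 35.2 FPKM in shJAM3 and 53.0 FPKM in shControl, a ratio of 0.665 (0.643 to 0.688), and its GC-centred log2 ratio was -0.41, above SEC24A and SEC23A. SEC23IP, which binds SEC23, was at 3.00 FPKM in shJAM3 and 3.03 FPKM in shControl, a ratio of 0.989 (0.856 to 1.14). SEC16B had no fragment in either library.

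The TMED genes spread evenly around 1. Of 9 measured genes, 5 were higher and 4 lower, with a median log2 ratio of 0.00, or -0.18 after GC centring. TMED9, an alpha-subfamily member with the highest mean level of all 61 genes, was at 99.7 FPKM in shJAM3 and 145 FPKM in shControl, a ratio of 0.686 (0.659 to 0.715). TMED4, of the same subfamily, was at 49.3 FPKM in shJAM3 and 49.2 FPKM in shControl, a ratio of 1.00 (0.953 to 1.06). TMED2 and TMED10, the single beta and delta members, were both higher. TMED2 was at 53.1 FPKM in shJAM3 and 37.7 FPKM in shControl, a ratio of 1.41 (1.34 to 1.49), and TMED10 at 46.6 FPKM in shJAM3 and 37.6 FPKM in shControl, a ratio of 1.24 (1.18 to 1.30).

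The gamma-subfamily genes TMED1, TMED3, TMED5 and TMED7 were level or lower. TMED3, TMED5 and TMED7 had ratios of 0.978, 0.939 and 1.01, with intervals that include 1. TMED1 was at 9.67 FPKM in shJAM3 and 14.5 FPKM in shControl, a ratio of 0.667 (0.563 to 0.789). Of its exon bases 51.3% are shared with DNM2 on the opposite strand, which was at 16.5 FPKM in shJAM3 and 24.8 FPKM in shControl. The part of DNM2 in the TMED1 value was not tested. TMED8 was at 9.06 FPKM in shJAM3 and 6.16 FPKM in shControl, a ratio of 1.47 (1.34 to 1.61), and TMED6 had 6 fragments in shJAM3 and 5 in shControl.

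Among the remaining members, SEC22B, the R-SNARE of ER to Golgi traffic, was at 19.4 FPKM in shJAM3 and 14.6 FPKM in shControl, a ratio of 1.33 (1.26 to 1.41). SEC22A was at 2.81 FPKM in shJAM3 and 1.69 FPKM in shControl, a ratio of 1.66 (1.33 to 2.09), and SEC22C at 4.58 FPKM in shJAM3 and 5.28 FPKM in shControl, a ratio of 0.867 (0.776 to 0.968). PDIA5 on the same strand shares 10.4% of the SEC22A exon bases and was at 25.2 FPKM in shJAM3 and 28.4 FPKM in shControl. The part of PDIA5 in the SEC22A value was not tested. SEC11A, a catalytic subunit of signal peptidase, was at 22.9 FPKM in shJAM3 and 19.0 FPKM in shControl, a ratio of 1.21 (1.14 to 1.29). SEC11C, the alternative catalytic subunit, held 8.09% of the pair's level in shJAM3 and 8.11% in shControl. SEC14L1 was at 10.4 FPKM in shJAM3 and 16.2 FPKM in shControl, a ratio of 0.640 (0.602 to 0.680), the lowest among the measured members, though SEC24A was lower after GC centring. SEC14L4 was at 1.83 FPKM in shJAM3 and 1.34 FPKM in shControl with an interval that includes 1. The other 4 SEC14-like genes were under 0.5 FPKM in both libraries, and SEC14L6 had no fragment.

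Transcript GC content moved with the ratios and was checked for each class. When measured protein-coding genes were cut into 10 GC groups, the lowest group had a median log2 ratio of 0.24 and the highest one of -0.44. The part of GC content in the class values was not tested beyond the centring given here. Over the 54 measured members, GC content and log2 ratio had r = -0.35 and rho = -0.30, across genes that share the same 2 libraries. Median GC was 44.4% for translocation, 48.2% for COPI and 44.3% for COPII, against 49.7% for all measured genes. After centring, 13 of 18 translocation genes, 3 of 8 COPI genes, 5 of 10 COPII genes and 3 of 9 TMED genes were above 0. Beside them, 5240 measured protein-coding genes were above 0 and 5240 below, a balance that the centring itself sets. A log2 ratio of 0.5 or more was then left for COPG2 alone, and -0.5 or less for SEC23A, SEC24A and SEC14L1.

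**Figure D4:**
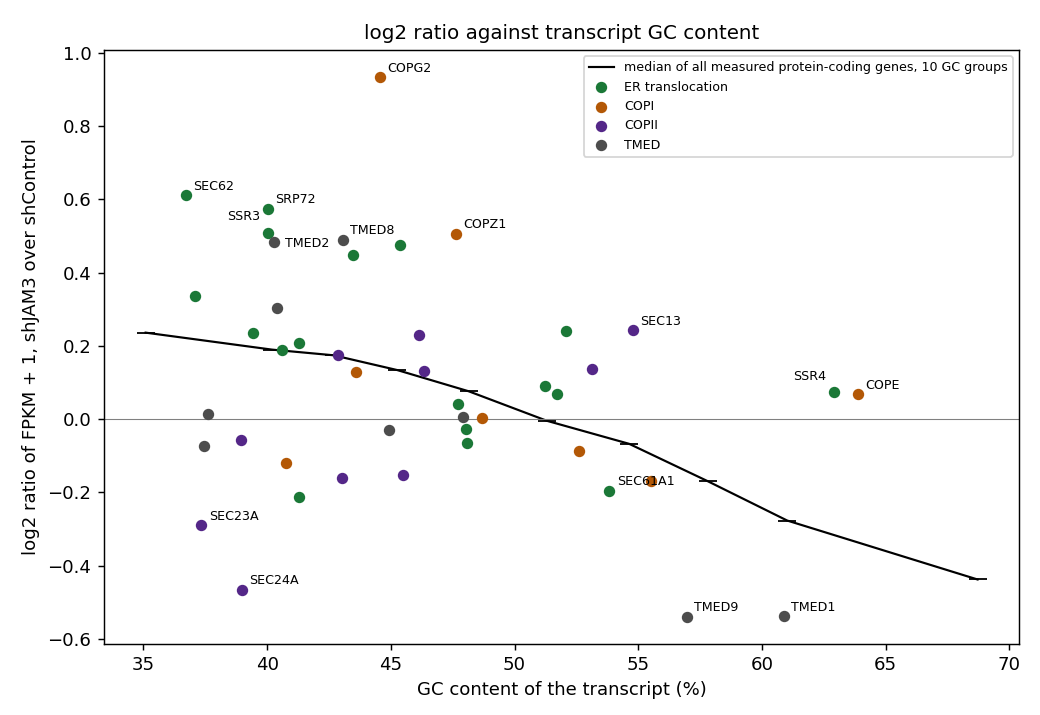
log2 ratio of FPKM + 1 (shJAM3 over shControl) against transcript GC content in percent for the measured translocation, COPI, COPII and TMED genes; the black line joins the medians of all measured protein-coding genes in 10 GC groups, from 0.24 to -0.44. COPG2, COPZ1, SSR4 and COPE lie well above the line, and SEC24A, SEC23A and TMED9 lie below it.

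Promoter sequence was examined for motifs known from ER and Golgi stress responses. RefSeq promoters of GRCh38.p14 were used, which run from 250 bases before to 50 after each annotated start. Of the 61 genes 57 had an entry. SRPRA, SEC24D, TMED4 and TMED9 had none. On either strand, TGACGTG, the core bound by XBP1 and ATF6, was present for 14 of 57 genes (24.6%), against 3.40% of 8385 measured protein-coding genes and 1.97% of all 35116 promoters. ACGTGGC, the core of a Golgi stress element, was present for 21 of 57 (36.8%), against 5.95% of measured genes. These motifs overlap in TGACGTGGC, present for 7 of 57 against 0.561% of measured genes. The longer ER stress response element, CCAAT and CCACG spaced by 9 bases, was in none of the 57, and in 0.167% of measured genes.

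These stretches are shown because they carry the motif letters for translocation and for each coat and touch no exon annotated in GENCODE 29. Each is 60 bases from GRCh38.p14 upstream of a start, in gene orientation, with matches to TGACGTG or ACGTGGC or their reverse complements in capitals. The SSR1 and SSR3 stretches lie inside the annotated genes, whose first bases are at 7347446 and 156555184. SSR3 has several RefSeq starts, and its stretch precedes an internal one. The promoter that covers the first base of SSR3, chr3:156555068-156555367, has ACGTGGC but not TGACGTG.
SSR1, chr6:7313255-7313314, minus strand: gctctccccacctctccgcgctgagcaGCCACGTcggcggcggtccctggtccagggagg
SSR3, chr3:156554134-156554193, minus strand: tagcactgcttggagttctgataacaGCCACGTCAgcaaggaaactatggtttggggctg
COPB2, chr3:139389733-139389792, minus strand: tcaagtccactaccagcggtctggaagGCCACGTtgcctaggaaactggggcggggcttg
COPG1, chr3:129249546-129249605, plus strand: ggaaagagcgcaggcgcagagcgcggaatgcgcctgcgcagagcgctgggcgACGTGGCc
SAR1A, chr10:70170683-70170742, minus strand: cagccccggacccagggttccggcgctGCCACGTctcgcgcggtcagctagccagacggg
SEC24C, chr10:73744273-73744332, plus strand: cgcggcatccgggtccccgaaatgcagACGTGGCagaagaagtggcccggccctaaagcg

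Genes with these letters did not share a direction. Among the genes shown, SSR1 and SSR3 had ratios of 1.15 and 1.43, COPB2 and COPG1 had 1.10 and 0.941, and SAR1A and SEC24C had 1.13 and 1.10. The 9 bases of the overlapping motif occur in promoters of SSR3 and SSR4, with ratios of 1.43 and 1.05. They also occur for SRP19, SEC23A, SEC24A and SEC16A, with ratios of 0.771, 0.802, 0.703 and 0.665, and for SEC16B, which had no fragment. These bases span the start in SEC23A, lie after it in SEC16A, and are upstream in the others. They are absent from other RefSeq promoters of SSR3, SSR4, SEC16A and SEC16B. For SSR3 the only promoter with them lies inside the gene. The median log2 ratio was -0.25 over the 6 measured genes with the 9 bases and 0.16 over 44 without. Members with ACGTGGC had a median log2 ratio of 0.13 over 20 measured genes, and those without it 0.15 over 30. For TGACGTG the medians were 0.00 over 13 genes with it and 0.18 over 37 without. A match is a description of letters, and binding was not measured here.

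Neighbouring steps of the pathway were read from lists of related genes, to be set beside the 49.4% of all measured protein-coding genes that were higher. List values are before GC centring unless stated. Oligosaccharyltransferase genes, whose products glycosylate chains at the translocon, were higher in 9 of 11 measured cases with a median log2 ratio of 0.19. TMEM258 was at 33.7 FPKM in shJAM3 and 21.7 FPKM in shControl, a ratio of 1.55, DAD1 had a ratio of 1.41 and DDOST a ratio of 1.28. The signal peptidase accessory genes were higher in 3 of 3 cases, with SPCS3 at 4.77 FPKM in shJAM3 and 2.34 FPKM in shControl, SPCS1 at 8.80 FPKM in shJAM3 and 7.30 FPKM in shControl and SPCS2 at a ratio of 1.07, the last within counting error. Of 10 genes of the ER membrane protein complex, an insertase, 6 were higher and 4 lower, with EMC2 at 2.23, EMC6 at 0.504 and MMGT1 at 1.43.

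Routes that bypass SRP, and the export steps, were mixed. Genes for inserting tail-anchored proteins were higher in 3 of 7 cases, with GET4 at a ratio of 0.624, WRB at 1.76 and SGTA at 0.752. The median log2 ratio of this list was -0.24, or -0.01 after GC centring. The translocon-associated TRAM1 had a ratio of 1.27, and TRAM2 was at 8.80 FPKM in shJAM3 and 16.1 FPKM in shControl, a ratio of 0.546 (0.505 to 0.591). Of 15 ER export factors and cargo receptors 11 were higher, with a median log2 ratio of 0.04, and CNIH1 had a ratio of 1.51, LMAN1 of 1.30 and YIF1A of 0.718. COPI regulators and KDEL receptors, a list that also holds the coat subunit ARCN1, were higher in 5 of 13 cases with a median of -0.07. ARFGAP1, which drives ARF1 to hydrolyse GTP, had a ratio of 0.636, and ARF3 had one of 1.29.

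SNAREs and tethers between ER and Golgi were higher in 9 of 14 cases with a median of 0.05, or -0.06 after GC centring. The Golgi tether GOLGA2 (GM130) was at 32.0 FPKM in shJAM3 and 54.1 FPKM in shControl, a ratio of 0.592 (0.568 to 0.617), BET1L had a ratio of 0.663 and STX18 of 1.67. ER chaperones and unfolded protein response targets were on the lower side in 13 of 18 cases, with a median of -0.10. The interval lay below 1 for 44.4% of them and above 1 for 22.2%, beside 36.8% and 34.5% of all measured protein-coding genes. Their summed level was on the higher side, at 1470 FPKM in shJAM3 and 1405 FPKM in shControl. HERPUD1, a component of ER-associated degradation, was at 20.5 FPKM in shJAM3 and 31.9 FPKM in shControl, a ratio of 0.644 (0.605 to 0.684). DNAJB9 had a ratio of 0.708 and PDIA4 of 1.37. A log2 ratio of 0.5 or more was reached by 1 gene each in the lists of signal peptidase accessory, oligosaccharyltransferase, ER membrane complex, export and SNARE genes, each list holding 3 to 15 measured genes, beside 8.35% of all measured protein-coding genes. A value of -0.5 or less was seen for 2 genes each in the COPI regulator and SNARE lists and for 1 gene each in the ER membrane complex, TRAM and chaperone lists, beside 12.4%.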

How the data were processed

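RNA from 2 A2780 cultures, 1 shJAM3 and 1 shControl, was measured. The authors deposited 1 table of FPKM for 58735 genes, with coordinates and gene lengths. The submitters' processing notes name tools without roles or order: featureCounts 1.5.0-p3 and HISAT2 2.0.5, edgeR 3.22.5 with DESeq2 1.20.0, STAR, STAR-Fusion, fastp, and GATK 4.1.1.0. No genome build is given in the labels, but coordinates and lengths of all 61 members equal those of GENCODE 29 (GRCh38).

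FPKM times gene length gave whole fragments for 100% of values above 0 (tolerance 0.001), which yielded the counting intervals (exact conditional binomial, 95%). Where symbols repeated, the row with the highest mean was kept, leaving out 1566. Log2 ratios used log2(FPKM + 1), which understates differences of low genes. GC content came from each gene's longest GENCODE transcript, a protein-coding one where present, and centring used 20 bins of measured protein-coding genes.

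All measured members of translocation, COPI and COPII are named. Of the other classes, those with an absolute log2 ratio of at least 0.5 and the most abundant are named, and of related lists up to 3 with the largest absolute log2 ratio, of which 1 is not reported here. Further members and overlapping genes were named after their values were seen. Members and lists were chosen with earlier results of these data known. The size rule and intervals were checked on counts simulated with counting error alone. That check says nothing of culture-to-culture or PCR spread. Python 3.11.15, numpy 2.4.6, pandas 2.3.3 and scipy 1.17.1 were used.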

Additional observations from a re-analysis of the deposited data

How the results depend on the processing

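No paired analysis was possible because each group has 1 library, and for the same reason none could be left out. Translocation kept a median above 0 and above both coats under every alternative run, but the margin narrowed under some. It was 0.042 over COPI by the mean over members and 0.068 over COPII among genes of at least 5 FPKM, against 0.16 for each as reported. Centring on GC content moved the medians of COPI to -0.041, COPII to -0.13 and TMED to -0.18, and left 1 member at a log2 ratio of 0.5 or more in place of 6. On the ratio without the added 1, an alternative chosen after seeing the data, the same centring gave 0.055 for translocation, -0.054 for COPI, -0.16 for COPII and -0.20 for TMED, with 3 members at 0.5 or more. COPII was also below 0 with its associated genes added (-0.034) and by its mean (-0.021). The mean in place of the median gave 0.16 for COPI and 0.18 for COPI minus COPII. With only genes that share no exon base, 3 in each coat, COPI was at -0.088, COPII at 0.17, COPI minus COPII at -0.26 and translocation minus COPI at 0.36. Centring on GC moved 33 of 54 members beyond their counting error, and no member with an absolute log2 ratio of 0.5 or more changed sign. The same share over all measured genes was not computed, so whether that count is particular to the members was not tested. Over 10496 measured protein-coding genes, GC content and log2 ratio had r = -0.50. Scaling by total fragments, median-of-ratios scaling, centring on gene length, a pseudocount of 0.1 FPKM and both other filters on low values moved no class median beyond counting error. For a class median, counting error was taken from the intervals of its middle gene or genes, not from the spread over the class. By that measure COPII counted as unmoved at 0.13 among genes of at least 5 FPKM, against 0.037 as reported. Depth limits genes such as COPZ2 and SEC11C, whose intervals span 1.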
